A study of Mus musculus with 42 samples.

Results

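The interleukin-1 (IL-1) family was followed through the libraries of a study of stromal bone morphogenetic protein (BMP) signalling in the mouse colon. The group held 9 genes, taken by name from the gene symbols of all 12 deposited tables, out of 19227 named genes in those tables together. They were the ligand genes Il1a, Il1b, Il18 and Il33, the antagonist gene Il1rn, the receptor genes Il1r1, Il1rap and Il1rl1, and the decoy receptor gene Il1r2. All 9 had rows in the stromal tables. The goblet cell tables of GS4M2 mice listed 5 of them (no Il1a, Il1b, Il1r2 or Il1rl1), while 7 had rows in those of GA3M2 mice (no Il1r2 or Il1rl1) and 7 in those of organoids (no Il1b or Il1r2).

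IL-1α and IL-1β are ligands of the same receptor, IL1R1, which signals once the accessory chain IL1RAP joins it and passes the signal through MYD88 and IRAK kinases to NF-κB. The receptor antagonist encoded by Il1rn occupies IL1R1 without signalling, and IL1R2 binds IL-1 but lacks a signalling domain. IL-33 acts through the receptor ST2, the product of Il1rl1, which shares IL1RAP, whereas IL-18 has a receptor pair of its own. IL-1β and IL-18 are made as precursors that inflammasome caspases cut, and in the intestine IL-33 is known from stromal cells and IL-18 from epithelial cells.

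The study asked whether loss of BMP signalling in Gli1+ stromal cells changes the mucin-producing epithelium through IL-1 and IL-17. Every mouse used for cell sorting carried Gli1-CreERT2, in which the Gli1 locus drives a tamoxifen-inducible Cre. All of these, controls included, received tamoxifen at 20 mg/ml, 100 µl per day on consecutive days. They were analysed on day 30 after tamoxifen, at an age of 2 to 4 months and from both sexes. Gli1-tdTomato+ stromal cells were sorted from proximal and distal colon of control mice (GWTT) and of mice with floxed Smad4 (GS4T) or floxed Alk3 (GA3T), and Muc2-mCherry+ goblet cells from the matching mice GWTM2, GS4M2 and GA3M2, with 2 libraries per genotype and segment (12 of each cell type). In the goblet cell series the deletion was in the stroma and not in the sorted cells. Organoids of the distal colon, epithelium grown without stroma, were labelled wild type. The paper describes cytokine-treated organoids from Muc2-mCherry mice without saying whether these were the ones sequenced. The organoids received 10 nM IL-1 (IL-1α and IL-1β), 10 nM IL-17A or neither for 12 h or 72 h, with 3 libraries per group (18 in all).

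Reads on named genes ranged from 14221915 to 23686940 per library. Both knockouts of a cell type and segment were compared with the same control libraries, and at each time both cytokines with the same controls. In the organoids, 2 control libraries carried the same reads under both times, so that the 42 library names stood for 40 distinct libraries. By Xist and Y-linked reads the Gli1+ libraries were 9 female and 3 male, the GS4T libraries were all female, and 2 goblet cell libraries, replicate 1 of each GWTM2 segment, were female against 10 male. Of the 18 organoid columns 8 were female and 10 male, and after 72 h the 3 IL-17A libraries were all male, whereas 2 of the 3 controls were female. Sex was unequal in the other organoid comparisons too. At 12 h the female libraries were replicate 4 of the controls and replicates 3 and 4 of each cytokine. After 72 h of IL-1 only replicate 2 was female. Smad4, the targeted gene, fell in proximal GS4T stroma from 1604 and 1673 to 705 and 835 normalised counts (log2 fold change -1.09, adjusted p = 0.010). In distal GS4T stroma it was 680 and 1171 against 1781 and 1703 (-0.96, adjusted p = 0.042). Bmpr1a, the gene of ALK3, was 2233 and 1842 against 2960 and 3220 in proximal GA3T stroma (-0.61, adjusted p = 0.12) and 2203 and 2043 against 3359 and 3485 in distal GA3T stroma (-0.69, adjusted p = 0.10). Bmpr1a was also lower in goblet cells, at 1572 and 1336 against 1966 and 2131 in proximal GA3M2 cells. In proximal GS4M2 cells it had 1468 and 1586 against 1846 and 2015. Summed over 9 genes, stromal markers held 42201 to 58568 reads per 1000000 reads on named genes (RPM) in every Gli1+ library and at most 33.2 in every goblet cell library, and 8 goblet markers held at least 9085 RPM in every goblet cell library. In goblet cells 2 to 7 of the 9 stromal genes had rows. Whether the libraries of a group came from separate mice is not stated, so the p-values measure the spread between libraries. Fewer cells of a type and less RNA per cell cannot be told apart in these bulk libraries.

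The 3 genes of IL-1 receptor ligands lie on chromosome 2 (GRCm38). Il1a (129299610-129309972) and Il1b (129364570-129371139) are both on the minus strand, 54.6 kb apart, and Il1rn (24336853-24351494) is on the plus strand. The receptor genes Il1r2 (40074079-40125231), Il1r1 (40225080-40317257) and Il1rl1 (40429570-40465415) follow each other on the plus strand of chromosome 1, with gaps of 99.8 and 112 kb. Il1rap is on chromosome 16 (26581704-26730117), Il18 on chromosome 9 (50554827-50581840) and Il33 on chromosome 19 (29925114-29960718), all on the plus strand. The 250 bases before the start of Il1a, Il1b and the first start of Il1rn are shown because these 3 genes encode the ligands of IL1R1 and rose in GS4T stroma. They are RefSeq windows of GRCm38.p6, written 5′ to 3′ on the strand of the gene, and capitals mark TGANTCA, the AP-1 motif.
Il1a, chr2:129309973-129310222, minus strand: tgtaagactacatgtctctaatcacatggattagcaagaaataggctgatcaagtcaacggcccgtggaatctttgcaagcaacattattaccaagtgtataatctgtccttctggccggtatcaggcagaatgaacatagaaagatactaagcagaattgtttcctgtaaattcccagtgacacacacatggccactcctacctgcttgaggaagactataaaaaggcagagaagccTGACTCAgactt
Il1b, chr2:129371140-129371389, minus strand: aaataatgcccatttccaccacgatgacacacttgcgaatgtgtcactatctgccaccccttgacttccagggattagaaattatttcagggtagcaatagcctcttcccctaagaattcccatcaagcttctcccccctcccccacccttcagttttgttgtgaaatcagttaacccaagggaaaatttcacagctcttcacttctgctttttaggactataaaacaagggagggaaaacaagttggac
Il1rn, chr2:24336610-24336859, plus strand: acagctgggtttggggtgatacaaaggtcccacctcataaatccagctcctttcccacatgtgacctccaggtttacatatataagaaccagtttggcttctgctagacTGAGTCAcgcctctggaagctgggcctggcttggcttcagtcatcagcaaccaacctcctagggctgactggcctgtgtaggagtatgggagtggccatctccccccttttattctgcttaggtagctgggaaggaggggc
The search covered both strands of the 250 bases before each of 14 starts of the 9 genes, for TGANTCA and for the NF-κB motif GGGNNNTTCC. TGANTCA stood in the window of Il1a, at bases -12 to -6, and of the first start of Il1rn, at -141 to -135, and 6.75% of all 32851 promoter windows of this length hold it. GGGNNNTTCC stood before the third start of Il1rn (-51 to -42) and, on the minus strand, before the second start of Il1r1 (-232 to -223), against 4.65% of all windows. Neither string was in the window of Il1b. A match is a description of letters, not of binding.

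Stromal and epithelial libraries held different members of the family at baseline. Levels between genes were set on one scale, RPM per kb of merged exon, and no test was made across cell types. In the 4 control Gli1+ libraries Il33 was the highest member at 34.6 to 118, and Il1r1 came next at 19.1 to 29.5. Il1b held 4.79 to 13.7, Il18 2.94 to 5.61, Il1rap 2.75 to 3.79 and Il1r2 1.59 to 3.56 on that scale. Il1a, Il1rl1 and Il1rn were lowest and overlapped one another, between 0.25 and 1.34. In the 4 control goblet cell libraries Il18 held 7.09 to 32.2 and was the highest member in 3 of them, with Il1r1 (2.44 to 8.25) above it in replicate 2 of GWTM2-Proximal. Il1rn (2.26 to 7.89) overlapped both. Il1rap held 0.678 to 1.23 there, and Il33, Il1a and Il1b reached at most 1.00, 0.545 and 0.119, with Il1b at 0 reads in 1 library, which allows up to 3 reads (counting error only). In the 4 distinct control organoid libraries Il1rn (41.7 to 54.0) and Il18 (25.0 to 51.9) were highest and overlapped, followed by Il1r1 (1.25 to 2.70) and Il1rap (0.718 to 1.06). Il1b thus lay higher in every control stromal library than in any control goblet cell library, and the genes of both IL-1 receptor chains were read in goblet cells, in organoids and, at higher levels, in the stroma itself.

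**Figure D1:**
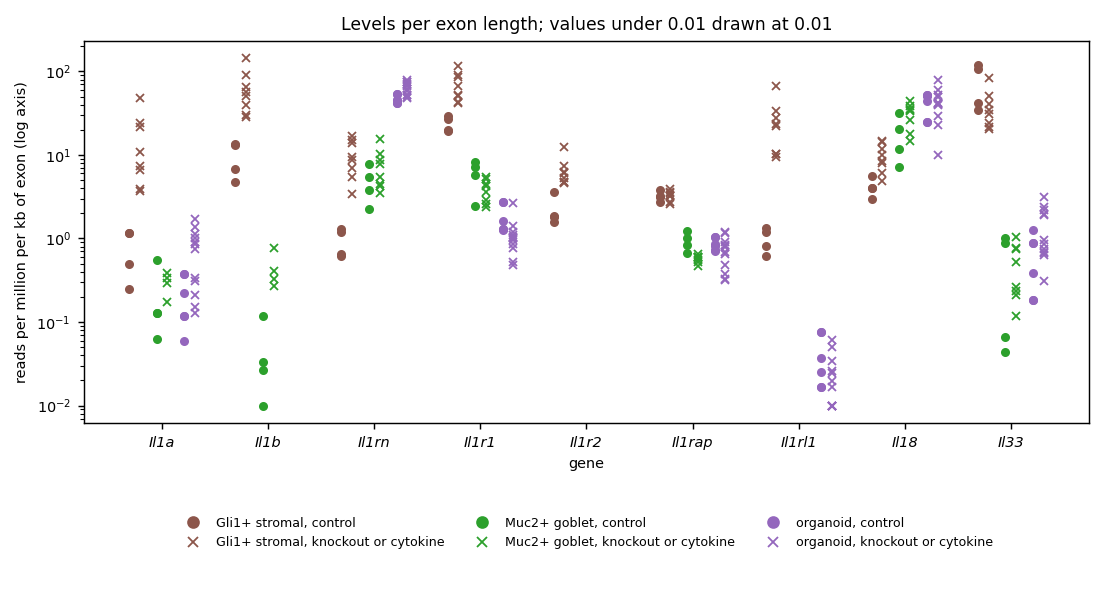
Levels of the 9 genes in every distinct library, in RPM per kb of exon on a log axis, with control libraries as dots and knockout or cytokine libraries as crosses in each cell type; each symbol is 1 library, and values under 0.01 are drawn at 0.01. Among control libraries Il33 was highest in Gli1+ cells (34.6 to 118), while in goblet cells Il18 (7.09 to 32.2) overlapped Il1r1 (2.44 to 8.25) and in organoids Il1rn (41.7 to 54.0) overlapped Il18 (25.0 to 51.9).

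In GS4T stroma, the stroma in which Smad4 was deleted, the genes of both IL-1 ligands, the antagonist, IL1R1, ST2 and the decoy receptor were all higher than in GWTT stroma, in both segments. In the proximal colon Il1a rose by a log2 fold change of 5.39 ± 0.52 (SE), Il1b by 3.57 ± 0.31 and Il1rn by 3.70 ± 0.36 (2 against 2 libraries each). Il33 stood the other way, at -1.78 ± 0.44 with an adjusted p of 0.055, and Il1rap at 0.21 ± 0.19. A member was called when its adjusted p (limma, all genes of the table) was under 0.05 and its log2 fold change was 1 or more in either direction. By that rule 7 of the 9 members were called in proximal GS4T stroma, all of them higher, against 9.61% of 15319 genes tested (5.25% higher), and 6 of 9 in distal GS4T stroma, again all higher, against 14% of 15262 genes (7.88% higher). The values of the 2 groups did not overlap for 8 members in the proximal segment (7 higher, 1 lower) and for 9 in the distal segment (8 higher, 1 lower), where 65.4% (34% higher, 31.4% lower) and 67.5% (34.4% higher, 33.1% lower) of all genes tested did not overlap.

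Il1a and Il1b encode the agonists of IL1R1. In proximal stroma Il1b had 218 and 152 normalised counts in GWTT and 2836 and 1674 in GS4T libraries (adjusted p = 0.0065), and Il1a 16.5 and 8.20 against 776 and 366 (adjusted p = 0.0077). The groups lay far apart for both genes, with means 12.2-fold higher for Il1b and 46.2-fold higher for Il1a, and for both the first GS4T library was the higher one. In distal stroma Il1b had 428 and 411 against 4511 and 2077 (2.86 ± 0.34, adjusted p = 0.0048). Il1a rose there from 38.1 and 37.8 to 1557 and 715 (4.76 ± 0.38, adjusted p = 0.0017). Again no control library reached a knockout library, and replicate 1 was the higher of both knockout libraries.

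Il1rn, the antagonist gene, rose beside the agonists. It had 57.9 and 111 normalised counts in proximal GWTT and 1250 and 884 in proximal GS4T libraries (adjusted p = 0.0077). In the distal segment it had 58.7 and 117 against 1522 and 1409 (4.13 ± 0.33, adjusted p = 0.0017). Il1r2, the decoy receptor gene, was lower in count and moved less, from 60.0 and 50.2 to 146 and 156 in proximal stroma (1.44 ± 0.28, adjusted p = 0.031) and from 56.7 and 110 to 188 and 233 in distal stroma (1.39 ± 0.37, adjusted p = 0.047).

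Among the receptors, Il1r1 was abundant in control stroma and rose about 3.01-fold and 3.16-fold in the mean. It had 2058 and 2083 normalised counts in proximal GWTT and 6900 and 5547 in proximal GS4T libraries (1.58 ± 0.13, adjusted p = 0.0063), and 3077 and 2803 against 8838 and 9739 in distal libraries (1.66 ± 0.12, adjusted p = 0.0013). Il1rl1, the gene of the IL-33 receptor ST2, had 156 and 70.7 against 2508 and 1099 in proximal stroma (3.97 ± 0.53, adjusted p = 0.014). In distal stroma it had 137 and 91.0 against 7544 and 3194, the largest distal change of the 9 members (5.45 ± 0.42, adjusted p = 0.0016). The accessory chain Il1rap, which both receptors share, had 728 and 518 against 674 and 753 in proximal and 584 and 601 against 624 and 609 in distal stroma. Its 95% interval of the log2 fold change was -0.28 to 0.71 and -0.24 to 0.36, and the knockout values lay within or just above those of the controls, in the distal segment above them in normalised counts (609 against 601 at the nearest) but not by RPM (36.5 against 37.0).

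Il33, the gene of the ligand of ST2, was the highest member per kb of exon in control stroma. In proximal GA3T stroma it overlapped Il1r1 on that scale (41.2 to 83.3 against 43.3 to 52.5). It was the one member with lower values in GS4T libraries. In the proximal segment it had 5767 and 5058 normalised counts in GWTT and 973 and 2532 in GS4T libraries, and in the distal segment 1639 and 1948 against 1446 and 1044 (-0.54 ± 0.18, adjusted p = 0.086). The groups did not overlap in either segment, and neither passed the adjusted threshold. Il18 rose in proximal stroma from 70.3 and 50.2 to 167 and 254 (1.78 ± 0.34, adjusted p = 0.031) and had 94.9 and 67.8 against 143 and 251 in distal stroma (1.23 ± 0.36, adjusted p = 0.059). The fold changes were not shown to differ between segments for any member (limma interaction over both tables). The proximal minus distal difference was -1.24 ± 0.56 for Il33 (adjusted p = 0.53) and -1.48 ± 0.80 for Il1rl1 (adjusted p = 0.63), while 29 of 15314 genes passed.

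The proximal GS4T calls, rather than the fold changes, depended on 1 library. Without replicate 1 of GS4T-Proximal no member and no gene at all was called, and without replicate 2 of GS4T-Proximal 3 members were. Over 14 alternatives, these 2 among them, the log2 fold change ran from 3.19 to 3.96 for Il1b, from 4.63 to 5.94 for Il1a, from 3.24 to 4.16 for Il1rn and from 1.42 to 1.74 for Il1r1. In such fits 1 arm holds a lone library that is assumed to vary like the others. In distal stroma 5 members were called whichever library was left out. On the recovered reads edgeR called 7 and 5 members in proximal and distal GS4T stroma (9.48% and 13.4% of genes) and DESeq2 8 and 7 (13.1% and 15.8%).

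**Figure D2:**
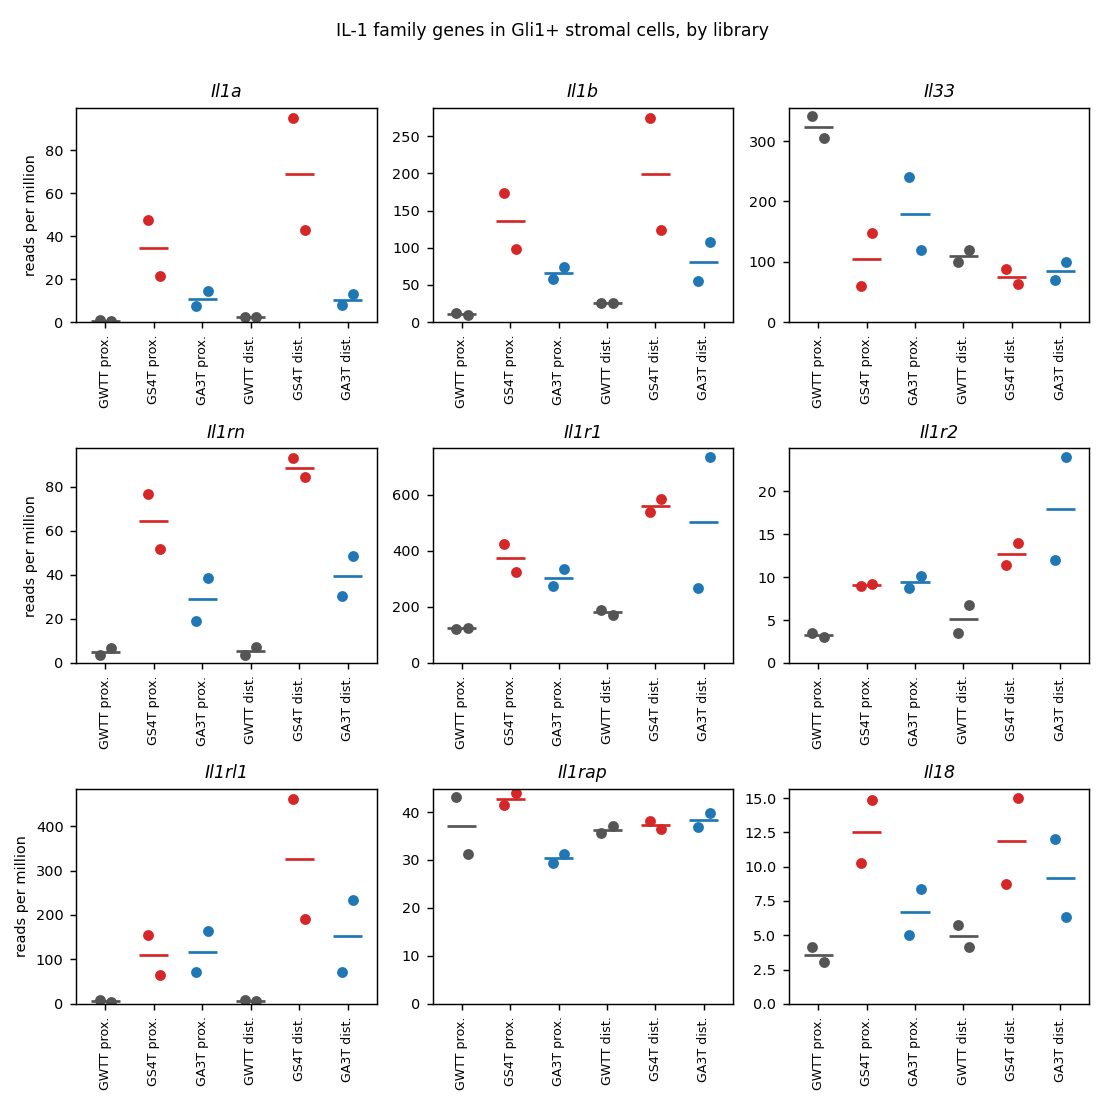
RPM of the 9 genes in Gli1+ libraries of GWTT, GS4T and GA3T mice, by segment, on linear axes from 0; each point is 1 library and each bar the mean of 2. The GS4T points of Il1a, Il1b, Il1rn, Il1r1 and Il1rl1 lie above both GWTT points in both segments, and those of Il33 below.

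In GA3T stroma, in which Alk3 was deleted, Il1b and Il1r1 rose in the proximal colon and no member was called in the distal colon. The control libraries are those of the GS4T comparison, so the 2 knockouts are not independent. In the proximal colon 2 of the 9 members, Il1b and Il1r1, were called and both were higher, against 0.358% of 15346 genes tested (0.345% higher). Il1b had 230 and 159 normalised counts in GWTT and 1037 and 1313 in GA3T libraries (2.60 ± 0.24, adjusted p = 0.0496). Il1r1 had 2165 and 2190 against 4926 and 5855 (1.30 ± 0.13, adjusted p = 0.0496). Both adjusted p sat at the edge of the threshold, and the count fell to 0 without replicate 1 of GWTT-Proximal, without replicate 2 of GWTT-Proximal or without replicate 2 of GA3T-Proximal. It was also 0 with edgeR, which called no gene of the table, and 6 with DESeq2, which called 6.31% of genes.

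Of the other members in proximal GA3T stroma, Il1rl1 had 164 and 74.3 against 1266 and 2862 (4.09 ± 0.54, adjusted p = 0.070), Il1a 17.4 and 8.62 against 132 and 256 (3.80 ± 0.55, adjusted p = 0.073) and Il1rn 60.9 and 116 against 340 and 678 (2.50 ± 0.47, adjusted p = 0.094). Il1r2 had 63.1 and 52.8 against 156 and 178 (1.51 ± 0.28, adjusted p = 0.092), and Il33 6068 and 5318 against 4302 and 2085 (-0.92 ± 0.35, adjusted p = 0.23). None of these passed the threshold, although none overlapped its control. Il18 had 74.0 and 52.8 against 90.2 and 146 (0.87, adjusted p = 0.27). Il1rap, with 766 and 545 against 527 and 547, was the one member whose groups overlapped. In all, 8 members did not overlap (7 higher, 1 lower), beside 56.4% of genes tested.

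In distal GA3T stroma no member was called by limma, and no gene of 15414 was (0%). With the unadjusted p in place of the adjusted one 6 members passed, beside 1197 genes, edgeR called 0 members and no gene, and DESeq2 5 members and 5.03% of genes. Il1rn had 66.9 and 133 normalised counts in GWTT and 538 and 935 in GA3T libraries (2.89 ± 0.42), and Il1rl1 156 and 104 against 1260 and 4521 (4.22 ± 0.61), each with an adjusted p of 0.095. Il1b had 489 and 468 against 975 and 2083 (1.57 ± 0.36, adjusted p = 0.14) and Il1a 43.5 and 43.0 against 138 and 250 (2.08 ± 0.38, adjusted p = 0.12). Replicate 2 of GA3T-Distal was the higher of the pair for all 4 genes. Il1r1 set both libraries furthest apart, with 3511 and 3190 in GWTT and 4789 and 14151 in GA3T (1.30 ± 0.50, adjusted p = 0.26), and Il1r2 had 64.7 and 126 against 214 and 461. Il18, Il33 and Il1rap had 213 and 122, 1252 and 1919, and 657 and 767 against 108 and 77.1, 1870 and 2217, and 666 and 684. For 7 members the groups did not overlap, all higher, beside 54.3% of genes. Without replicate 1 of GA3T-Distal, the one male library of that comparison, 5 members were called. The segment difference was largest for Il1a (proximal minus distal 1.72 ± 0.70, adjusted p = 0.71), and no gene passed there (1047 by the unadjusted p).

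**Figure D3:**
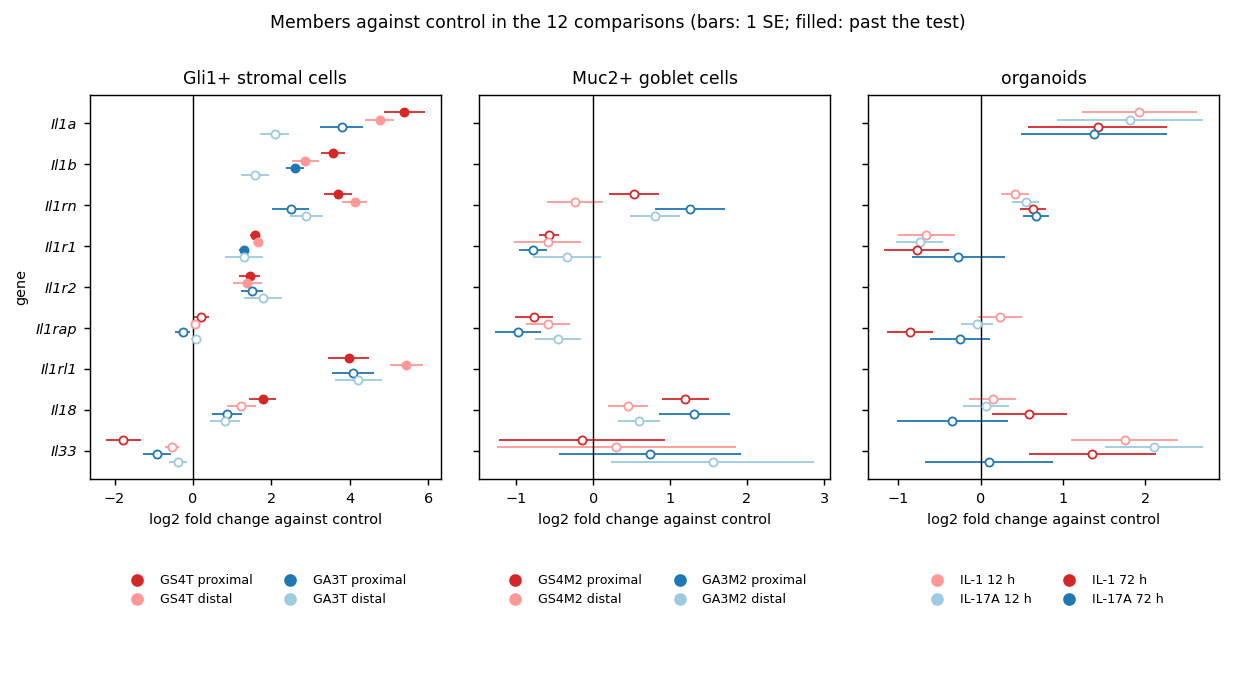
Log2 fold changes of the members in each of the 12 comparisons, knockout or cytokine against its own control, with bars of 1 SE from limma; filled points passed the call. In GS4T stroma the filled points run from 1.39 for distal Il1r2 to 5.45 for distal Il1rl1, and no point is filled in goblet cells or organoids.

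Markers of other cells moved with the stromal ligand genes, and their part in the result was not tested. Summed neutrophil markers, of which all 10 were above 0 in GS4T libraries, held 82.5 to 100 RPM in proximal and 219 to 319 in distal GS4T stroma, against 2.63 to 7.39 in GWTT and 14.7 to 53.3 in GA3T libraries. The GA3T sums cover fewer genes, 7 of the 10 in the proximal and 6 in the distal segment. In proximal GWTT stroma Ly6g was at 0 reads in both libraries. Macrophage and monocyte markers, with all 14 above 0 throughout, held 282 to 418 in proximal and 839 to 902 in distal GWTT stroma, 1083 to 1901 and 1459 to 2533 in the GS4T stroma of those segments, and 927 to 1671 in GA3T stroma. Epithelial markers (all 8 above 0) held 16.02 to 569 in GWTT, 762 to 1757 in GS4T and 474 to 1133 in GA3T libraries. Pan-leukocyte markers lay closer together. In the proximal segment they held 159 to 180 in GWTT and 176 to 233 in GS4T libraries, which overlapped. In the distal segment they held 170 to 203 and 204 to 304, which did not. GA3T libraries, at 151 to 263, overlapped their controls in both segments. Ptprc, the gene of CD45, held 44.0 to 64.3 RPM in GWTT, 38.0 to 60.5 in GS4T and 41.5 to 74.2 in GA3T libraries. Of the marker genes tested in GS4T stroma, 6 of 8 neutrophil and 9 of 14 macrophage genes rose in the proximal and 10 of 10 and 8 of 14 in the distal segment, while no pan-leukocyte gene of 6 did. In the other direction the monocyte gene Ly6c2 fell in both segments (-3.17 and -5.05) and Ccr2 in the distal one (-1.55). Plasma and B cell markers fell for 1 of 4 genes tested in the proximal and 4 of 6 in the distal segment, and their sums were 1567 to 4829 RPM in GWTT, 112 to 829 in GS4T and 894 to 1953 in GA3T libraries. In proximal GA3T stroma 5 of the 6 genes had rows.

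Other genes of the pathway in GS4T stroma are read against 9.61% of all genes called in the proximal and 14% in the distal segment. Of 14 inflammasome and precursor processing genes tested, 2 rose in the proximal segment, Nlrp3 (3.21), a sensor, and Casp8 (1.24), with a list median of 0.93 against 0.02 over all genes. In the distal segment 5 of 14 rose, led by Nlrp3 (1.91), Mefv (1.83), Nlrc4 (1.65) and Aim2 (1.38), all inflammasome sensors. None of 16 genes of IL-1 receptor signal transduction was called in either segment, at medians of 0.11 and 0.08. Of 15 NF-κB response genes, Lcn2 (5.88), Cxcl5 (4.45) and Cxcl2 (2.64) rose in proximal stroma at a list median of -0.03, and 5 rose in distal stroma, led by Lcn2 (7.27), Cxcl5 (4.35) and Cxcl2 (2.61), at a median of 0.65. Lcn2 encodes an iron-binding protein of innate defence, and Cxcl5 and Cxcl2 encode neutrophil chemokines. Of the other IL-1 family genes, Il18r1, a chain of the IL-18 receptor, fell by 1.64 in proximal stroma, and Il1f9, the IL-36γ gene (4.74), and Il18rap, the other IL-18 receptor chain (2.28), rose in distal stroma. In proximal GA3T stroma Lcn2 (5.62) was the only gene of these 4 lists that was called, and in distal GA3T stroma none was.

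Across the 12 Gli1+ libraries, the genes most alike to each member in log2 RPM were found as a description, since the points share genotypes and depth. Il1b was closest to Inhba (Pearson r = 0.984), which encodes an activin subunit, and to Il1a (0.980). Il1a was closest to Fabp5 (0.985), Ddb1 (0.982) and Sema7a (0.981). Il1rn was closest to Dcbld1 (0.987), Ecscr (0.984) and Cd300lf (0.984), Il1r1 to Cdr2l (0.979), Gpat4 (0.977) and Gpr39 (0.975), and Il1rl1 to Smox (0.986), Nipa2 (0.982) and Ggt7 (0.981). Il33, with its opposite course, was closest to Fez1 (0.959), Aoc3 (0.951) and Serpinf1 (0.938).

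In the goblet cells of the same genotypes, in which neither gene was deleted, no member was called in any of the 4 comparisons (limma). The table of proximal GS4M2 cells is reported by its deposited column names, under which its controls are read for read those of the GA3M2 table. A supplementary table of the study heads these columns the other way round, which would turn the sign of every proximal GS4M2 value. With the unadjusted p, 1 of 5 members passed in proximal GS4M2, beside 567 of 13246 genes, 2 of 5 in proximal GA3M2, beside 911 of 13346, and 0 in both distal comparisons. By limma 0.325% and 0% of genes were called in proximal and distal GS4M2 cells and 0.0899% and 0% in proximal and distal GA3M2 cells. DESeq2 called 1 member, Il18 in proximal GS4M2 cells, and 2.04% of genes there, no member in proximal GA3M2 cells (3.23% of genes), and edgeR called no member in any of the 4. In distal GS4M2 and GA3M2 cells the unadjusted p passed 353 and 539 genes, and DESeq2 called 147 (1.12%) and 240 (1.83%).

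The receptor chains were lower rather than higher in the proximal goblet cells of both knockouts. Il1r1 had 773 and 900 normalised counts in GWTM2 and 573 and 548 in GS4M2 cells (-0.57 ± 0.13, adjusted p = 0.13). In GA3M2 cells it had 517 and 512 against 823 and 952 on the scale of that table (-0.78 ± 0.18, adjusted p = 0.19). Il1rap had 160 and 240 against 114 and 116 in GS4M2 (-0.76 ± 0.25, adjusted p = 0.21) and 170 and 253 against 97.6 and 113 in GA3M2 cells (-0.98 ± 0.30, adjusted p = 0.25). The knockout values lay below both controls for both chains, and none passed the threshold. In distal goblet cells Il1r1 had 275 and 666 against 307 and 262 in GS4M2 and 263 and 642 against 285 and 371 in GA3M2 cells, where the control libraries differed more from each other than the groups did. The lower one, replicate 1 of GWTM2-Distal, was female, and without it Il1r1 was called lower in distal GS4M2 cells (-1.23, adjusted p = 0.037). Distal Il1rap was below both controls, with 136 and 209 against 116 and 109 in GS4M2 and 131 and 202 against 115 and 122 in GA3M2 cells (-0.58 and -0.46, adjusted p = 0.52 and 0.59).

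Of the epithelial ligands, Il18 had higher values in all 4 comparisons without passing the limma test. It had 208 and 125 in GWTM2 and 304 and 453 in GS4M2 cells of the proximal colon (1.20 ± 0.30, adjusted p = 0.16 by limma, 0.014 by DESeq2, and 0.014 to 0.42 over 14 alternatives). In GA3M2 cells there it had 278 and 659 against 221 and 132 (1.32 ± 0.46, adjusted p = 0.28). The distal values were 603 and 690 against 372 and 601 in GS4M2 and 623 and 753 against 356 and 580 in GA3M2 cells, so that no knockout library fell below a control. Il1rn had 213 and 361 against 316 and 509 in proximal and 530 and 790 against 397 and 757 in distal GS4M2 cells, which overlapped. In GA3M2 cells it had 457 and 1092 against 227 and 381 (1.26 ± 0.46, adjusted p = 0.29) and 834 and 1413 against 507 and 763 (0.80, adjusted p = 0.42), both without overlap. Without replicate 1 of GA3M2-Proximal, Il1rn and Il18 were both called in proximal GA3M2 cells (1.89 and 1.94, adjusted p = 0.046 and 0.047), and without replicate 2 of GWTM2-Distal Il1rn was called in distal GA3M2 cells (1.10, adjusted p = 0.029).

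Il1a, Il1b and Il33 were near the floor in goblet cells. In proximal GA3M2 cells Il1b had 14.1 and 12.0 against 0.914 and 1.14, and Il1a 12.1 and 11.1 against 4.57 and 4.56, both below the filter on low values and not tested. In distal GA3M2 cells Il1b had 8.81 and 24.0 against 3.84 and 0, and Il1a 5.87 and 12.5 against 18.2 and 2.19. Neutrophil markers held 0.63 to 10.0 RPM in GWTM2 and 20.7 to 127 in GA3M2 cells, summed over the 4 of 10 that had rows. In GS4M2 cells they held 5.94 to 33.5, but there only 1 had a row in the proximal and 2 in the distal segment. The GS4M2 sums are thus not the same measure. In organoids, grown without stroma, 2 of the 10 neutrophil markers had rows at 72 h. They held 133 to 152 RPM in controls and 488 to 703 after IL-1. Goblet markers held 29838 to 61482 in GWTM2, 35569 to 47850 in GS4M2 and 9085 to 21205 in GA3M2 cells. The part of both in these values was not tested. Il33 varied most between libraries of 1 group, with 42.9 and 3.24 in proximal and 51.2 and 2.26 in distal GWTM2 cells. The high values were those of the 2 female libraries, and all knockout values lay between 5.69 and 51.9. Without replicate 1 of GWTM2-Distal, Il33 was called higher in distal GA3M2 cells (3.54, adjusted p = 0.017). The members tested that did not overlap numbered 3 of 5 in proximal and 2 of 5 in distal GS4M2 cells and 4 and 3 of 5 in GA3M2 cells, while 50.2% (25% higher, 25.2% lower), 45.7%, 52.1% (26% higher, 26.1% lower) and 44.2% of all genes did not overlap. No member differed between segments in its goblet cell fold change (limma interaction, no gene called in either genotype).

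**Figure D4:**
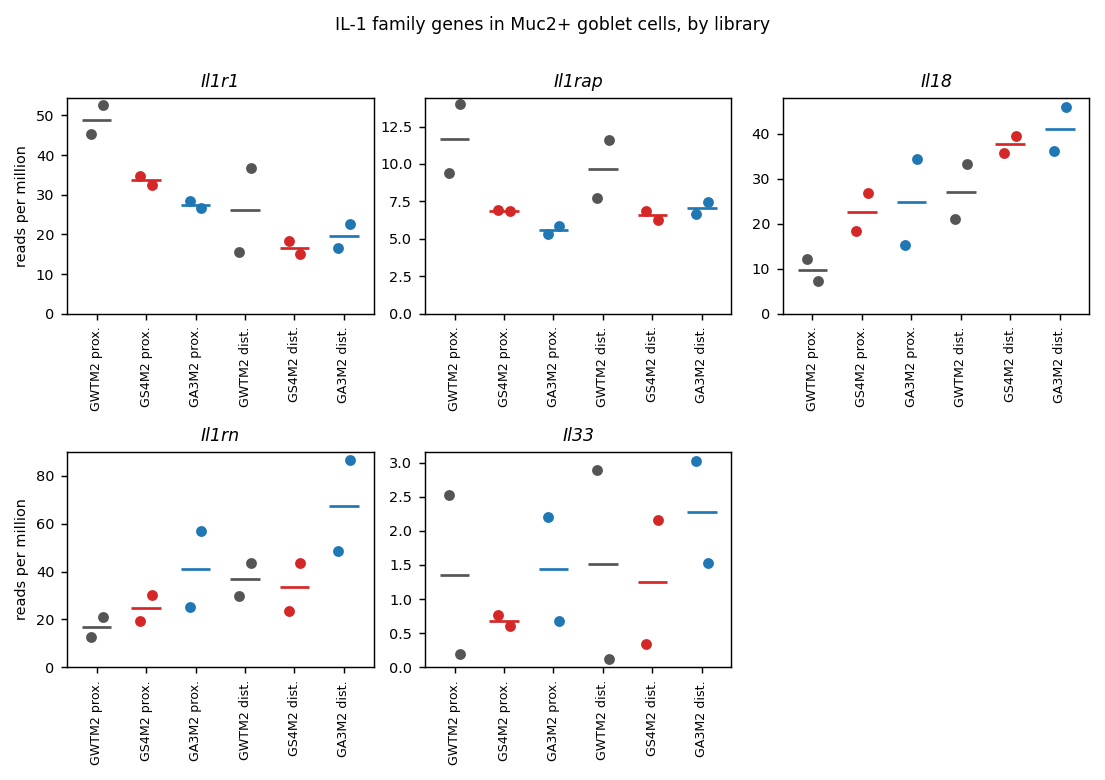
RPM of the 5 members tested in goblet cells, in GWTM2, GS4M2 and GA3M2 libraries by segment, on linear axes from 0; each point is 1 library and each bar the mean of 2. Proximal Il1r1 and Il1rap lie below both control points in both knockouts, and the control points of Il33 lie far apart in both segments.

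The stromal ligand and epithelial receptor values are set side by side per genotype, in RPM per kb and as a description. Il1b held 4.79 to 13.7 in control stroma, 51.3 to 144 in GS4T and 28.7 to 56.6 in GA3T stroma. Il1a held 10.8 to 48.1 in GS4T and 3.75 to 7.40 in GA3T stroma. Il1r1 of the goblet cells, at 2.44 to 8.25 in GWTM2, 2.36 to 5.47 in GS4M2 and 2.60 to 4.45 in GA3M2 libraries, stood below that of the stroma, which was 19.1 to 29.5 in GWTT, 51.0 to 91.7 in GS4T and 42.3 to 115 in GA3T libraries. Il1rap of the goblet cells held 0.678 to 1.23, 0.552 to 0.608 and 0.471 to 0.655 in the same order, against 2.59 to 3.87 over all Gli1+ libraries. The stromal antagonist Il1rn held 9.34 to 16.8 in GS4T and 3.43 to 8.76 in GA3T libraries, and Il1b lay above Il1rn on this scale in each of the 12 Gli1+ libraries.

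In organoids, the treated epithelium without stroma, neither cytokine produced a called change of any member at either time, and the treated libraries of Il1rn lay above every control in 3 of the 4 comparisons in normalised counts and in none by RPM. After 12 h of IL-1 it had 3731, 4765 and 3945 normalised counts in control and 4411, 6000 and 6357 in treated libraries (0.42 ± 0.17, adjusted p = 0.89). After 12 h of IL-17A it had 3917, 4993 and 4131 against 5056, 6959 and 7126 (0.54 ± 0.17, adjusted p = 0.84). These adjusted p depended on the fit. Over 18 alternatives the log2 fold change of Il1rn at 12 h ran from 0.32 to 0.58 for IL-1 and from 0.46 to 0.70 for IL-17A. The smallest adjusted p was under 0.05 for both, and no alternative called it, as the change stayed under 1. The lowest IL-1 library stood below the highest control, whereas the IL-17A libraries stood above all controls. After 72 h of IL-1 it had 4517, 3533 and 3785 against 6627, 6449 and 5273, a log2 fold change of 0.63 ± 0.16 with an adjusted p of 0.017, and after 72 h of IL-17A 4508, 3512 and 3777 against 5978, 6860 and 5872 (0.67 ± 0.16, adjusted p = 0.047). At 72 h both cytokine groups lay above all 3 controls in normalised counts, with an adjusted p under the threshold and a fold change under the required 1, so neither was called. Scaled to library depth alone the groups overlapped at 72 h, with 273 to 383 RPM after IL-1 and 285 to 438 after IL-17A against 234 to 299 in controls, and after 12 h of IL-17A, with 289 to 416 against 231 to 299. Without the 2 control libraries that stand under both times, which leaves 1 control, the adjusted p was 0.13 for IL-1 and 0.46 for IL-17A at log2 fold changes of 0.78 and 0.82. With near-identical libraries averaged it was 0.077 and 0.18.

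The receptor genes of the organoids were lower or level after the cytokines. Il1rap had 123, 148 and 178 in control and 106, 71.7 and 70.2 in organoids after 72 h of IL-1 (-0.86 ± 0.28, adjusted p = 0.046, under the required fold change). The treated libraries lay below every control. Without replicate 1 of IL1-72h, Il1rap (-1.05, adjusted p = 0.028) and Il1a (2.31, adjusted p = 0.027) were both called. After 12 h of IL-1 it had 148, 130 and 186 against 124, 214 and 219, and the difference between the times was -1.09 ± 0.39 (72 h minus 12 h, adjusted p = 0.059), where 3310 genes passed. That interaction counts the control libraries filed under both times in each of them. It passed without replicate 1 of IL1-72h (-1.28) and without replicate 1 of IL1-12h (-1.36). A fit chosen after seeing the data entered each distinct control once, as 1 control group for both times. There the controls cancel, and Il1rap is compared directly between IL-1 at 72 h and at 12 h (-1.05 ± 0.28, adjusted p = 0.0125, limma). Time in culture is not taken out of that value. After 72 h of IL-17A Il1rap had 123, 147 and 178 against 169, 149 and 75.6, which overlapped. Il1r1 had 169, 274 and 126 against 81.3, 123 and 147 after 12 h and 260, 120 and 121 against 123, 92.7 and 64.7 after 72 h of IL-1 (-0.66 and -0.78, adjusted p at 72 h = 0.15). After 12 h of IL-17A it had 177, 287 and 132 against 112, 120 and 106, below all controls, and after 72 h 259, 119 and 121 against 125, 268 and 63.0.

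The remaining ligand genes were low or scattered. Il18, the most abundant ligand gene of organoids, had 848, 411 and 827 against 703, 676 and 821 after 12 h of IL-1, and 389, 688 and 794 against 453, 1027 and 1564 after 72 h. Il33 had 17.8, 8.42 and 38.9 against 30.1, 90.7 and 93.2 after 12 h of IL-1 (1.75 ± 0.65) and 18.7, 8.82 and 40.7 against 47.9, 118 and 110 after 12 h of IL-17A (2.10 ± 0.60, adjusted p = 0.78). Its IL-17A libraries lay above every control at 12 h. Il1a had 1.87, 3.74 and 11.5 against 10.0, 27.4 and 28.9 after 12 h of IL-1 (1.93 ± 0.70). After 72 h of IL-1 both genes overlapped their controls, with treated libraries at 42.1, 151 and 48.3 for Il33 and 4.82, 45.8 and 28.5 for Il1a. Il1rl1 stayed at or under 8.82 normalised counts in all organoid libraries and was not tested.

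The counts of called members were 0 of 6 tested in each of the 4 organoid comparisons by limma, edgeR and DESeq2. With the unadjusted p 2 members, Il1a and Il33, passed after 12 h of IL-1, beside 119 of 12913 genes, and 1, Il33, after 12 h of IL-17A, beside 140 of 12977. At 72 h none did, beside 3365 of 13023 genes for IL-1 and 2688 of 13073 for IL-17A. The share of all genes called was 0.0542% and 0.0385% at 12 h and 23% and 7.94% at 72 h for IL-1 and IL-17A. With sex of the library as a block, a choice made after seeing the data, the 72 h IL-17A comparison called 5 genes in place of 1038, and no member in either fit. Members without overlap numbered 0 and 3 at 12 h and 2 and 1 at 72 h, beside 9.53%, 10.9%, 54.7% and 45.3% of genes tested. Replicate 3 and replicate 4 of IL1-12h, of IL17A-12h, and replicates 2 and 4 of Control-72h were nearly the same in their reads (chi-square per gene of 3.03 to 3.32, against 18.05 to 212 in other pairs) and were kept as separate libraries.

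**Figure D5:**
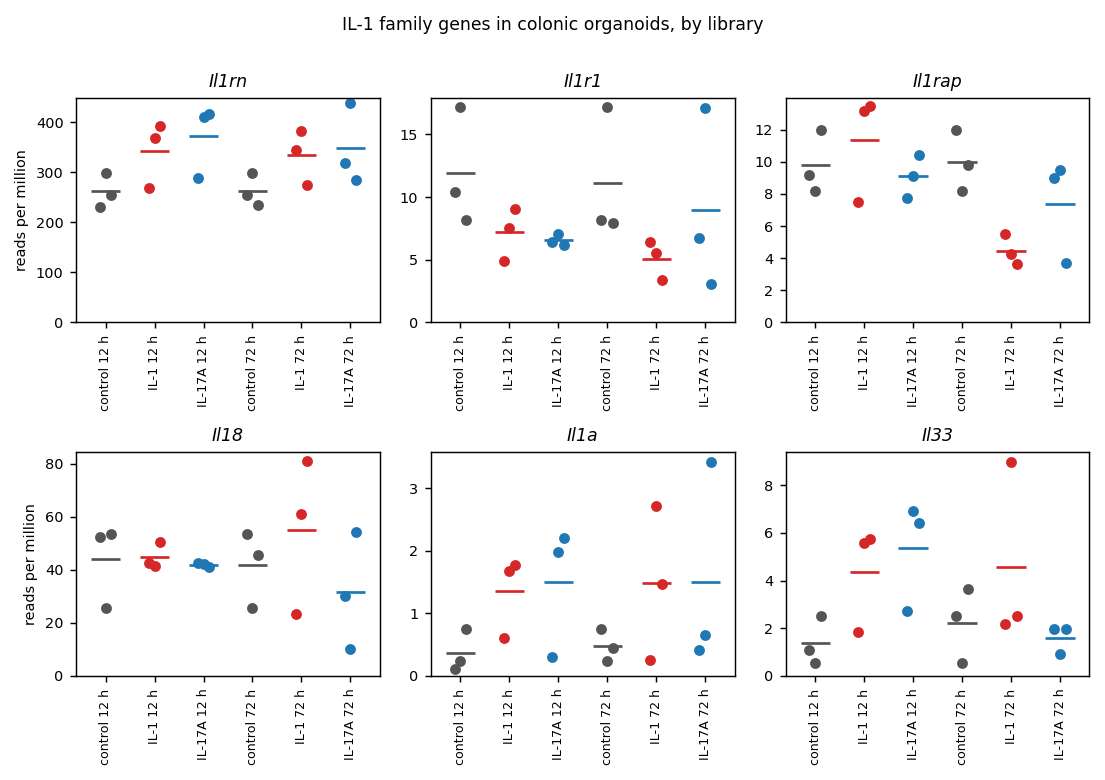
RPM of the 6 members tested in control, IL-1 and IL-17A organoids at 12 h and 72 h, on linear axes from 0; each point is 1 library and each bar the mean of 3, and 2 control libraries stand under both times. On this scale the lowest Il1rn point of each treated group lies under the highest control (299), and the Il1rap points after 72 h of IL-1 (3.64 to 5.50) lie under all controls (8.15 to 12.0).

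IL-1 and IL-17A were also compared with each other at equal dose and time, on reads scaled together. The differences and intervals are those of the fit without the replicate number, so they leave out any link between libraries of the same number. Il1rn differed by -0.12 ± 0.18 (IL-1 minus IL-17A, 95% interval -0.54 to 0.29) at 12 h and by -0.03 ± 0.16 (-0.38 to 0.32) at 72 h. Il1r1 differed by 0.08 (-0.61 to 0.78) and -0.50 (-1.70 to 0.70), and Il1rap by 0.28 (-0.29 to 0.84) and -0.60 (-1.39 to 0.18). No member passed at either time by limma (0 of 12951 genes at 12 h, and 2 of 12997, or 0.0154%, at 72 h), where the unadjusted p passed 35 genes each. With the replicate number as a block, which treated same-numbered libraries as pairs, 27 genes and no member passed at 12 h.

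NF-κB response genes and other genes of the pathway lists were called in organoids after either cytokine, where the members were not. Of all genes tested, 0.0542% and 0.0385% were called after 12 h of IL-1 and IL-17A. After 72 h the shares were 23% and 7.94% (10.9% and 5.02% called higher). Of the NF-κB response genes, Ccl20 (4.95), Cxcl2 (4.69), Nfkbiz (1.42) and Nfkbia (1.20) rose after 12 h of IL-1 (4 of 15, list median 1.79 against 0.00 over all genes), and Zc3h12a (2.62) and Nfkbiz (2.34), which encode regulators of the IL-17A response, rose after 12 h of IL-17A (2 of 14, median 1.41). After 72 h 9 of 15 rose with IL-1, led by Lcn2 (6.45), Cxcl2 (3.86), Ccl20 (3.05) and Cxcl1 (2.69), and 8 of 15 with IL-17A, led by Lcn2 (5.71), Cxcl2 (3.55), Zc3h12a (3.18) and Nfkbiz (3.05). At 72 h all IL-17A libraries were male and the controls were of both sexes. Sex as a block, which cut the genes called in that comparison, was not applied to these lists. At 72 h 2 controls also stand under 12 h, so time in culture is not cleanly taken out for either cytokine. Ccl20 and Cxcl1 encode chemokines. Of 16 signalling genes 2 were called after 72 h of IL-1 and 1 after 72 h of IL-17A, beside 23% and 7.94% of all genes. Irak2, which relays the receptor signal, rose after 72 h of IL-1 (1.89) and of IL-17A (1.71), and Irak3, an inhibitor of that relay, fell by 1.68 after IL-1. Of 11 inflammasome and processing genes 2 rose with each cytokine, among them Gsdmd, the pore-forming substrate of inflammatory caspases, after 72 h of either cytokine (1.83 and 1.59). Of 6 other IL-1 family genes, Il1f9 rose by 4.01 and 5.01, and Il18rap fell by 2.40 and 3.12. In goblet cells none of the 9 to 14 NF-κB genes tested per comparison was called, with medians of 0.22 and 0.25 in proximal and distal GS4M2 and 0.63 and 0.17 in GA3M2 cells.

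Across the 18 organoid columns, of which 16 are distinct libraries, Il1rap was closest to Ttc37 (Pearson r = 0.968), Lrrc40 (0.955) and Alg13 (0.955), and Il1r1 to Map3k15 (0.935), Anks6 (0.930) and Bcl11a (0.922), as a description over libraries that share controls. Il18 was closest to Ctns (0.930), Slc37a2 (0.925) and Hint1 (0.912). Il1rn had the least close neighbours, Kctd12 (0.838), Abi1 (0.825) and Tnfrsf11b (0.820).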

How the data were processed

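RNA sequencing of 42 libraries was read from 12 tables, each holding 1 knockout or cytokine with its control. The authors mapped reads to mm10 with STAR 2.5.3, after FastQC, and normalised gene counts with DESeq2 1.28.1; the program, annotation and strand setting that counted reads on genes are not given in the sources used here. The values deposited by the authors are a signal per gene, gene counts divided by 1 size factor per library of the table. Each column divided by its smallest step (0.752 to 1.26) gave whole reads for 100% of values (tolerance 0.1). Rows without a gene name, found in the GS4M2 tables only, held up to 28.2% of a library and were left out.

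Each table was fitted alone with limma 3.58.1 (R) on log2(value + 1), with a trend, over genes with a mean of at least 10, and Benjamini-Hochberg adjustment over all of them. The call needed an adjusted p under 0.05 and a log2 fold change of 1 or more in size. The fold changes are on that log2 scale, which understates changes of low genes. All members passed the filter in stroma, 5 in goblet cells and 6 in organoids. Alternatives were edgeR 4.0.16 and DESeq2 1.42.0 on recovered reads, pseudocounts of 0.1 and 10, no filter, a minimum mean of 50, upper-quartile scaling, unadjusted p, a replicate block, near-identical organoid libraries averaged and each library left out; chosen after seeing the data were sex as a block, leaving out control libraries filed under both times, and each distinct control once. The fits were tested on simulated data. In the comparison of IL-1 with IL-17A libraries of the same number deviated together (correlations of 0.59 to 0.86 at 12 h and 0.44 to 0.75 at 72 h). That does not show a shared mouse, since replicate 2 at 72 h was female after IL-1 and male after IL-17A. At 12 h replicate 1 was male and replicates 3 and 4 female in both groups, so number and sex go together there. The members and gene lists were chosen with earlier results of these data known. All 9 members were named, at most 4 called genes per pathway list and comparison, and the 3 genes most alike to a member, of which 1 is not reported here. Levels per kb use merged exons of GENCODE M21 on GRCm38.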

Additional observations from a re-analysis of the deposited data

How the results depend on the processing

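Over the alternatives other than leaving out each library in turn, 811 of the members' fold changes kept their direction and side of the threshold, 47 passed it where the reported value did not, 8 no longer passed it and 20 turned sign. With 1 library left out these were 391, 16, 23 and 28. In epithelium Il1a, Il1b, Il33 and Il1rl1 held few reads. The cause of the changes below was not tested. Sex as a block could not be fitted in distal GS4T stroma, where all libraries were female. In proximal GS4T stroma, distal GA3T stroma and the goblet cell comparisons 1 library alone was of the other sex, so there the block gives the fold changes of leaving that library out.

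Members called in proximal GA3T stroma were 0 with a pseudocount of 0.1, upper-quartile scaling or edgeR and 6 with DESeq2 or an unadjusted p. In distal GA3T stroma 5 were called with DESeq2, 6 at an unadjusted p and 5 with sex as a block. In proximal GS4M2 cells 1 was called with DESeq2 and 1 at an unadjusted p, in distal GS4M2 cells 1 with sex as a block, in proximal GA3M2 cells 2 at an unadjusted p, and in distal GA3M2 cells 1 with sex as a block. In organoids 2 passed an unadjusted p after 12 h of IL-1, 1 after 12 h of IL-17A, and 1 with sex as a block after 72 h of IL-1. For the times of IL-1, 1 passed with each distinct control entered once, a fit that compares 72 h with 12 h directly because the controls cancel. Leaving out 1 library gave 0 to 7 in proximal GS4T stroma and 5 throughout in distal GS4T stroma, 0 to 2 and 0 to 5 in proximal and distal GA3T stroma, 0 to 1 in distal GS4M2, 0 to 2 in proximal and 0 to 1 in distal GA3M2 cells, 0 to 2 after 72 h of IL-1 and 0 to 1 for its difference between times.

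In the comparisons with a control, groups had 2 replicate numbers in common, and the labels tie no number to a mouse or day. Same-numbered libraries deviated together after 12 h of IL-1 (r = 0.62 and 0.64) and of IL-17A (0.63 and 0.64), and elsewhere r ran from -0.19 to 0.30. With the replicate number as a block, members called were 8 and 6 in proximal and distal GS4T stroma (1618 and 2333 genes in all), 3 and 1 in proximal and distal GA3T stroma (253 and 62 genes), 2 in proximal GA3M2 cells (699 genes) and 1 after 12 h of IL-17A (120 genes). The block changed no other count of members. Under the block Il18 was -0.14 after 12 h of IL-1 and -0.28 after 12 h of IL-17A, Il1rap -0.011 after 12 h of IL-1 and 0.24 after 72 h of IL-17A, and Il1r1 0.060 after 72 h of IL-17A, each with the opposite sign to the reported value.

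Sign turned also for Il33, at 1.54 with sex as a block in proximal GS4M2 cells, -0.0019 with a pseudocount of 10, -0.31 with edgeR and -0.30 with DESeq2 in distal GS4M2 cells, and -0.13 with edgeR, -0.13 with DESeq2 and -0.96 without the shared controls after 72 h of IL-17A. Il18 was -0.21 after 12 h of IL-1 and -0.30 after 12 h of IL-17A without the shared controls, -0.017 with edgeR, -0.017 with DESeq2 and -0.010 with sex as a block after 12 h of IL-17A, and 0.27 with sex as a block after 72 h of IL-17A. After 72 h of IL-17A Il1rap was 0.010 with sex as a block and Il1r1 0.11 without the shared controls. With 1 library left out, Il1rap ran from -0.031 to 0.46 in proximal GS4T and from -0.039 to 0.18 in distal GA3T stroma. In goblet cells Il33 ran from -1.83 to 1.54 (proximal GS4M2), -1.70 to 2.30 (distal GS4M2), -0.96 to 2.44 (proximal GA3M2) and -0.43 to 3.54 (distal GA3M2), Il1r1 from -1.23 to 0.045 (distal GS4M2) and -0.98 to 0.30 (distal GA3M2), and Il1rn from -0.70 to 0.23 (distal GS4M2). In organoids Il18 ran from -0.20 to 0.33 after 12 h of IL-1, and from -0.28 to 0.24 after 12 h and -0.97 to 0.42 after 72 h of IL-17A. After IL-17A Il1rap ran from -0.16 to 0.093 at 12 h and -0.47 to 0.10 at 72 h, Il1r1 from -0.80 to 0.24 and Il33 from -0.69 to 0.63 at 72 h. Between the cytokines Il1rn ran from -0.28 to 0.037 and Il1r1 from -0.10 to 0.32 at 12 h, and Il1rn from -0.088 to 0.073 and Il1r1 from -1.01 to 0.024 at 72 h.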
